A study of Mus musculus with 4 samples.

Results

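The genes described here run the passage of a cell from G1 into S phase. They are the 3 D-type cyclins (Ccnd1, Ccnd2, Ccnd3), the 2 E-type cyclins (Ccne1, Ccne2), the 3 kinases that bind them (Cdk2, Cdk4, Cdk6), the kinase inhibitor gene Cdkn1b and the retinoblastoma gene Rb1. They were taken by symbol, and all 10 were found among the 14382 genes of the deposited table. The cells were mouse embryonic stem cells (ESCs) of genotype Arid1af/f:CreERT2, so every library, controls included, came from cells with floxed Arid1a alleles and CreERT2, a form of Cre recombinase that needs 4-hydroxytamoxifen (4-OHT) to reach the nucleus. ARID1A is a DNA-binding subunit of BAF complexes, which move nucleosomes. The control group received ethanol, the other received 1 µM 4-OHT for 24 hours, and the cells were then passaged. RNA was taken at 72 hours after treatment, and polyA RNA of each group was sequenced in 2 libraries. The ESCs were kept in medium with LIF, serum and serum replacement on irradiated fibroblast feeders, so the RNA can include that of feeders.

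Whether the libraries of a group are separate cultures is not in the labels, and p-values then measure only the spread between these libraries, which may be technical. The protocol names 2 TruSeq kits without assigning them to libraries. A difference of kit, an effect of 4-OHT itself and the loss of Arid1a cannot be told apart in these 4 libraries.

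In the textbook account of G1, D-type cyclins are made in answer to growth signals and switch on CDK4 and CDK6. These kinases phosphorylate RB, which otherwise holds E2F factors inactive, and E2F then drives transcription of E-type cyclins and of genes for DNA replication. Cyclin E with CDK2 completes the phosphorylation of RB and starts S phase. The product of Cdkn1b, p27, blocks cyclin E-CDK2 and is bound by cyclin D-CDK complexes. Mouse ESCs are known for a short G1 phase, strong CDK2 activity and RB that is phosphorylated for most of the cycle.

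RefSeq promoter windows (GRCm38.p6, 250 bases before to 50 after an annotated start) were found for 6 of the 10 genes, Ccnd3, Ccne1, Cdk2, Cdk4, Cdk6 and Cdkn1b. Those of Ccnd3, Cdk4 and Cdk6 are shown because they stand for the 3 outcomes met below, a gene that rose, a kinase gene that did not pass the test and a kinase gene that fell. Ccnd3 has 2 windows, at 2 annotated starts, and the deposited values do not separate transcripts from either. Capitals mark the GC box GGGCGG, the core of Sp1-type sites, and the E-box CACGTG, the core of MYC-type sites, on either strand. Each sequence is on the plus strand, which is the strand of all 3 genes.
Ccnd3, first start, chr17:47504801-47505100: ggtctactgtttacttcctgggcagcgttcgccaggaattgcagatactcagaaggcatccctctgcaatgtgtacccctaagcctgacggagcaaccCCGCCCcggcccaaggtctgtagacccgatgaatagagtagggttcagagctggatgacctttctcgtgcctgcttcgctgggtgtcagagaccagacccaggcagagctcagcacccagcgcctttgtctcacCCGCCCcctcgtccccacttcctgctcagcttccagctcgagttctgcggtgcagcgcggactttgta
Ccnd3, second start, chr17:47593217-47593516: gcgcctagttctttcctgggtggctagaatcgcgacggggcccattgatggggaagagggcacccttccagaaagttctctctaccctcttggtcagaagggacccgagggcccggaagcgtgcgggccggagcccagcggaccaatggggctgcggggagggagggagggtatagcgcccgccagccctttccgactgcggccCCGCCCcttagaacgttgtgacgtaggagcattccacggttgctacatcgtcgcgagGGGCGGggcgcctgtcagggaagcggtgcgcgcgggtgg
Cdk4, chr10:127063285-127063584: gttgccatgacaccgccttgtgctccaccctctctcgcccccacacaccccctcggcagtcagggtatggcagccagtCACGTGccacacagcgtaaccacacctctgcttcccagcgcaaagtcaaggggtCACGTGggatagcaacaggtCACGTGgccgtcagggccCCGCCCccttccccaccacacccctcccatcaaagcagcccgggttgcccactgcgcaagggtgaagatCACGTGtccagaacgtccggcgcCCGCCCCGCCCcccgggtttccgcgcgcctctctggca
Cdk6, chr5:3343643-3343942: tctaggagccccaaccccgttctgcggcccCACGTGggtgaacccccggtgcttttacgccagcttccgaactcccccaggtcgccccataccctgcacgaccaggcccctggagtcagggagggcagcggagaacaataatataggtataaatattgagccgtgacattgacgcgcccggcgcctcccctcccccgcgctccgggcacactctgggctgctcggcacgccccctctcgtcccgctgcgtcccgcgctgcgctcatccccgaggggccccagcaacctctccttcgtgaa

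Each Ccnd3 window held 2 GC boxes and no E-box. The Cdk4 window held 4 E-boxes and 3 GC boxes, 2 of which overlap, and the Cdk6 window held 1 E-box and no GC box. Of the 7 windows of these genes, 6 held a GC box, those of Ccne1, Cdk2 and Cdkn1b included, and 2 held an E-box. Among all 32851 windows of this length, 35.7% held a GC box and 7.15% an E-box. An E2F site, searched as TTCCCGC or TTGGCGC, was found in the Cdk2 window alone among the 7 windows of these genes, against 6.81% of all windows. The CRE TGACGTCA (1.79% of all windows) and the AP-1 site TGANTCA (7.81%) were in none of the 7 windows, and the TCF/LEF site CTTTGAT (3.73%) was in that of Cdk4. All motifs were searched on both strands. A match describes the letters of the window and is not a binding site or a cause.

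Arid1a served as the check of the labels. Its CPM (read count scaled by the effective library size) was 517 and 502 in the ethanol libraries and 241 and 213 with 4-OHT. Both 4-OHT libraries were below both ethanol libraries, and the level was 55.4% lower (log2 fold change -1.16, SE 0.066, adjusted p 7.27e-06). The sources used here do not say which exons are floxed, so how many of the remaining reads come from exons that are kept is unknown. How complete the loss of Arid1a was, and the part of feeder RNA in what remained, was not tested. The recovered reads summed to between 6050742 and 6849890 per library, 1 read was worth 0.142 to 0.159 CPM, and 3 reads, the limit that a count of 0 allows, were 0.426 to 0.477 CPM.

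Across the 14376 genes tested, limma called 9.46% at an adjusted p under 0.05, 5.24% higher and 4.22% lower with 4-OHT. Of the 10 G1 genes, 3 rose, 1 fell and 6 did not pass. The 3 that rose were the 3 D-type cyclins, and the 1 that fell was Cdk6. Tests on the recovered reads called more genes overall with edgeR (15.8%) and fewer with DESeq2 (5.06%). With edgeR, 3 of the 10 rose and 2 fell, Cdk6 and Cdkn1b. With DESeq2 3 rose and 0 fell, and 4 of the 10 were at an unadjusted p under 0.05. Among all genes, 1751 were at such a p in DESeq2, which gave an adjusted p for 13801 genes, and 3441 of 14376 in limma. In 5 of the 10 genes both libraries of a group lay beyond both of the other, against 52.1% of all genes tested, so that count by itself is near the background. The median log2 fold change was 0.03 over the 10 genes and -0.0016 over all genes tested.

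**Figure D1:**
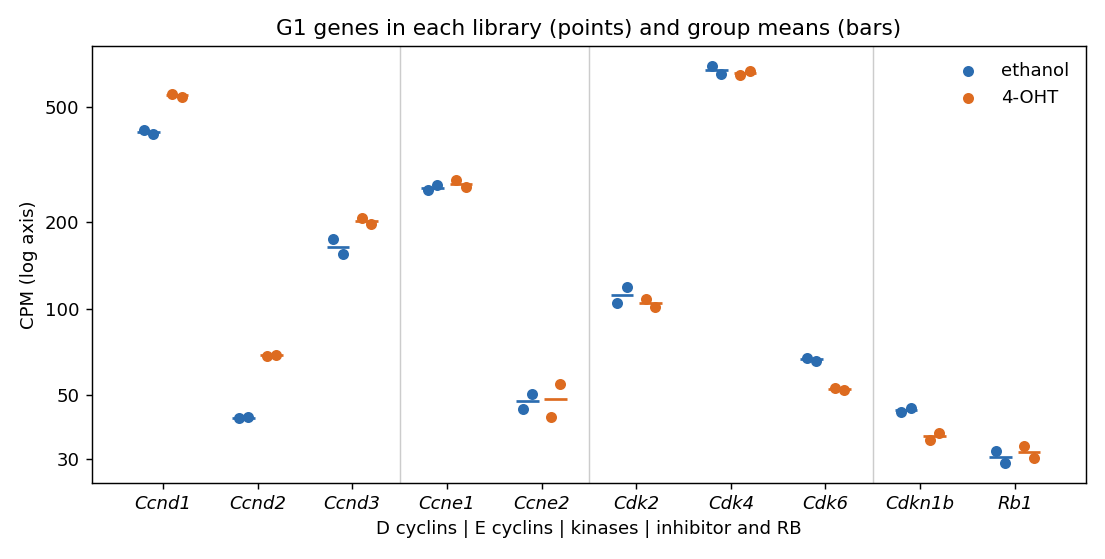
CPM of the 10 G1 genes (log axis) in each library, with blue points for ethanol, orange points for 4-OHT and a bar at each group mean. The 4-OHT points lie above the ethanol points for the 3 D-type cyclins, below them for Cdk6 and Cdkn1b, and among them for the other 5 genes.

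The 3 D-type cyclin genes all rose with 4-OHT, Ccnd2 by 1.65-fold, Ccnd1 by 1.34-fold and Ccnd3 by 1.23-fold. Ccnd1 (GRCm38 chr7:144929931-144939925, minus strand) encodes cyclin D1, a main target of mitogen and WNT signals in many cells. It was at 418 and 404 CPM in ethanol and at 555 and 544 with 4-OHT, which is 411 ± 10.3 against 549 ± 7.66 (SD, n = 2 each). The 2 groups lay far apart relative to the gap between the libraries of each. The log2 fold change was 0.42 (SE 0.053, 95% interval 0.30 to 0.53, adjusted p 0.000924), and the sums of 5289 and 7327 reads gave a counting interval for the fold of 1.29 to 1.39.

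Ccnd2 (chr6:127125162-127152193, minus strand), which encodes cyclin D2, was at 41.7 and 42.0 CPM in ethanol and at 68.5 and 69.1 with 4-OHT. Libraries of a group were nearly equal and the groups did not overlap. This gave a log2 fold change of 0.71 (SE 0.076, 95% interval 0.54 to 0.87, adjusted p 0.000428). The SDs of 0.191 and 0.446 CPM were smaller than the 2.55 and 3.22 CPM that counting alone gives at 538 and 917 reads, so the spread of these pairs understates the error. The counting interval for the fold was 1.48 to 1.83.

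Ccnd3 (chr17:47505051-47599691, plus strand), which encodes cyclin D3, was at 174 and 155 CPM in ethanol and at 207 and 197 with 4-OHT. The groups did not overlap, and the gap between the ethanol libraries was the widest of the 3 D-type cyclins. Its log2 fold change was 0.30 (SE 0.069, 95% interval 0.15 to 0.45, adjusted p 0.0230). With edgeR the adjusted p was 0.000534, and with DESeq2 it was 0.0243.

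These calls rest on both 4-OHT libraries when limma is used. Without 4-OHT library A or B, limma called 0 of 14376 genes (2505 and 2514 at an unadjusted p under 0.05), and its adjusted p was 0.139 and 0.136 for Ccnd1, 0.134 and 0.136 for Ccnd2, and 0.289 and 0.231 for Ccnd3. The log2 fold changes in these fits were 0.40 and 0.43 for Ccnd1, 0.71 and 0.70 for Ccnd2, and 0.26 and 0.34 for Ccnd3, near those with all libraries. Under the same omissions edgeR called 1588 and 1767 genes, and its adjusted p for Ccnd3 was 0.00877 and 0.000182, with lower values for Ccnd1 and Ccnd2. Ccnd3 also lost its call without ethanol library B, the lower one, where the log2 fold change was 0.21 (adjusted p 0.165) and edgeR gave 0.139.

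The share of each gene within the D-type cyclin sum was computed on CPM per kb of exon, since levels of different genes can be compared only per length. Ccnd1 gave 78.6% and 79.5% of the sum in ethanol and 79.2% and 79.5% with 4-OHT, so its share overlapped between the groups. The share of Ccnd2 was 3.92% and 4.14% in ethanol and 4.90% and 5.06% with 4-OHT, and that of Ccnd3 was 17.5% and 16.3% against 15.9% and 15.4%. With the longest transcript as the length the share of Ccnd3 was higher, at 27.6% and 25.9% in ethanol and 25.2% and 24.6% with 4-OHT, that of Ccnd1 averaged 69.1% and 69.9%, and that of Ccnd2 averaged 4.16% and 5.17%. By both lengths cyclin D2 transcript took a larger part of the sum in both 4-OHT libraries and cyclin D3 transcript a smaller one. The ratio of Ccnd2 to Ccnd1 in CPM went from 0.0996 and 0.104 to 0.123 and 0.127. These are descriptions, with no test of the difference between the 3 genes.

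Of the kinase genes, Cdk6 fell and Cdk4 and Cdk2 did not pass the test. Cdk4 (chr10:127063534-127067920, plus strand) encodes the main partner of D-type cyclins in many cell types. It was at 697 and 654 CPM in ethanol and at 649 and 670 with 4-OHT, so that the groups overlapped. The log2 fold change was -0.03 (SE 0.056, 95% interval -0.16 to 0.09, adjusted p 0.783). By mean CPM it ranked 128 among the genes tested.

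Cdk6 (chr5:3341485-3531008, plus strand) encodes the second kinase that D-type cyclins switch on. It was at 67.3 and 66.0 CPM in ethanol and at 52.9 and 52.1 with 4-OHT. Both 4-OHT libraries were lower, by 21.2% on the mean. This gave a log2 fold change of -0.34 (SE 0.074, 95% interval -0.50 to -0.17, adjusted p 0.0174). The SDs of 0.906 and 0.524 CPM were smaller than the 3.22 and 2.81 CPM that counting alone gives. The spread of these pairs thus understates the error, and the counting interval for the fold was 0.71 to 0.87. The adjusted p was 0.00309 with edgeR and 0.138 with DESeq2. With limma it was 0.0733 without ethanol library A, and 0.185 and 0.193 without 4-OHT library A or B, where edgeR gave 0.0453, 0.0155 and 0.0167.

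Cdk2 (chr10:128697939-128705031, minus strand) encodes the kinase of E-type and A-type cyclins. It was at 105 and 119 CPM in ethanol and at 108 and 101 with 4-OHT, and the groups overlapped. Its log2 fold change was -0.09 (SE 0.077, 95% interval -0.26 to 0.08, adjusted p 0.520). A fall of up to 0.26 on the log2 scale thus lies within the interval.

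Neither E-type cyclin passed the test. Ccne1 (chr7:38097984-38107534, minus strand), which encodes cyclin E1, was at 259 and 268 CPM in ethanol and at 280 and 263 with 4-OHT. Its log2 fold change was 0.05 (SE 0.057, 95% interval -0.08 to 0.17, adjusted p 0.696). The upper end of that interval is below the estimates of all 3 D-type cyclins. It is above the lower end of the Ccnd3 interval, 0.15, so these 2 intervals overlap. The difference between genes was not tested. Ccne2 (chr4:11191351-11204779, plus strand), which encodes cyclin E2, was at 44.8 and 50.7 CPM in ethanol and at 42.2 and 54.7 with 4-OHT. The 4-OHT libraries lay on either side of both ethanol libraries. The log2 fold change was 0.01 (SE 0.12, 95% interval -0.26 to 0.28, adjusted p 0.967), a wider interval than that of Ccne1.

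Cdkn1b (chr6:134920401-134925513, plus strand), the p27 gene, did not pass in limma, while its groups did not overlap. It was at 43.9 and 45.1 CPM in ethanol and at 34.97 and 37.03 with 4-OHT. Here too the SDs, 0.862 and 1.46 CPM, were smaller than the 2.63 and 2.33 CPM that counting alone gives. The log2 fold change was -0.30 (SE 0.088, 95% interval for this gene alone -0.49 to -0.10, adjusted p 0.0634). The call turned on the method, with an adjusted p of 0.0301 in edgeR, 0.0299 in limma over genes with a mean of at least 1 CPM, and 0.417 in DESeq2. Rb1 (chr14:73183673-73325822, minus strand), the gene of the protein that these kinases phosphorylate, was at 32.1 and 29.2 CPM in ethanol and at 33.4 and 30.2 with 4-OHT. Its groups overlapped, and the log2 fold change was 0.05 (SE 0.105, 95% interval -0.18 to 0.29, adjusted p 0.823).

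**Figure D2:**
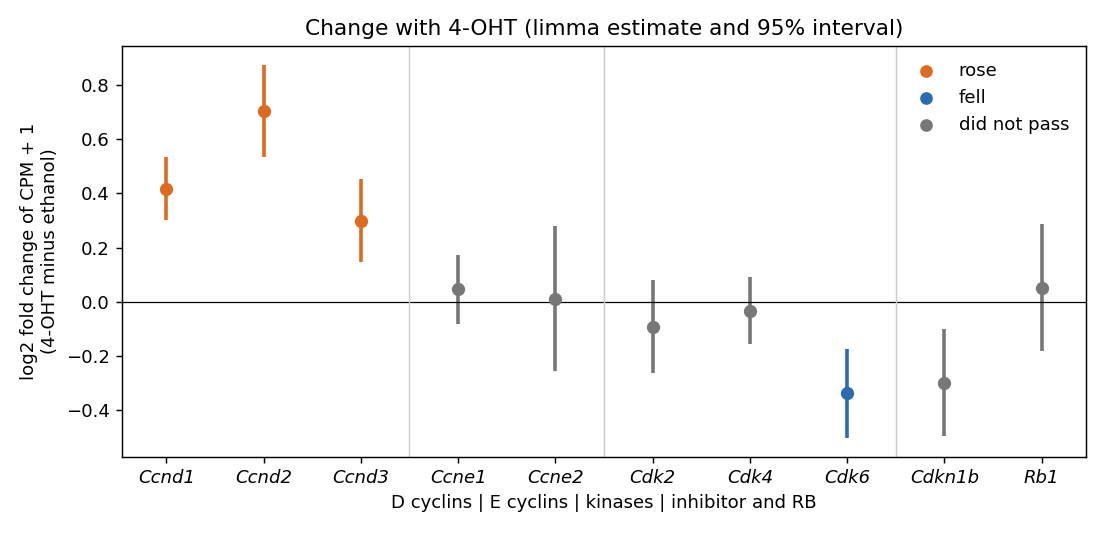
Change with 4-OHT relative to ethanol, in log2 units of CPM + 1, for the 10 G1 genes, as limma estimates with 95% intervals for each gene alone. Orange marks genes that rose, blue the gene that fell and grey those that did not pass after adjustment. The 3 D-type cyclins lie between 0.30 and 0.71, Cdk6 is at -0.34 and Cdkn1b at -0.30.

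The D-type cyclins were next set together against their partners, on CPM per kb of exon. Their sum was 113 and 108 in the ethanol libraries and 149 and 145 with 4-OHT, which is 110 ± 3.73 against 147 ± 2.40 (SD, n = 2 each), 1.33-fold higher. The sum of Cdk4 and Cdk6 was 219 and 206 in ethanol and 204 and 210 with 4-OHT, so that it overlapped. The kinase sum is nearly all Cdk4, which exceeded Cdk6 by 44.6 and 42.7 times in ethanol and by 52.9 and 55.4 times with 4-OHT. The fall of Cdk6 therefore moved the sum little.

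D-type cyclin transcript per kinase transcript was 0.516 and 0.524 in ethanol and 0.731 and 0.692 with 4-OHT, 1.37-fold higher. Both 4-OHT libraries were above both ethanol libraries. With the length of the longest transcript the ratio went from 0.475 to 0.645, and with no length from 0.832 to 1.15, so that the value depends on the length used and the fold (1.36 and 1.38) little. D-type cyclins over Cdkn1b went from 11.7 and 10.9 to 19.4 and 17.9 (1.65-fold). D-type cyclins over Rb1 went from 21.2 and 22.2 to 26.8 and 28.9 (1.28-fold). All 3 ratios were thus higher in both 4-OHT libraries. They share the D-type cyclin sum as numerator, so they are not separate observations of its rise. No p is given for these sums, since the genes were chosen with results known, and the exact permutation test of 2 libraries against 2 cannot go below 0.333 (two-sided).

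**Figure D3:**
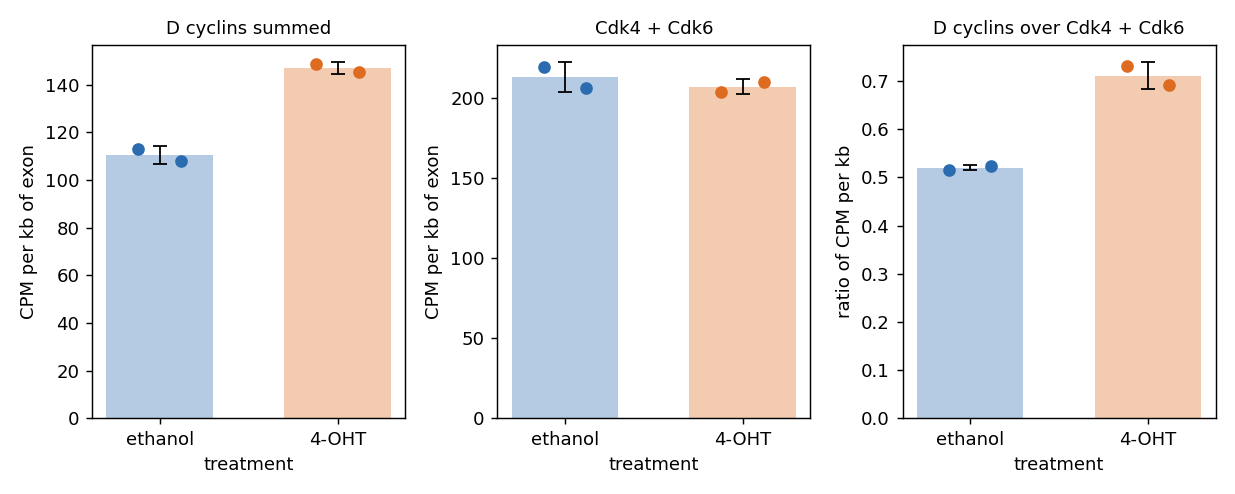
Summed CPM per kb of exon of Ccnd1, Ccnd2 and Ccnd3 (left), of Cdk4 and Cdk6 (middle), and the ratio of the first to the second (right). Points are libraries, bars are group means and error bars are SDs of 2 libraries. The D-type cyclin sum and the ratio are higher in both 4-OHT libraries and the kinase sums overlap.

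E-type cyclins gave a different picture. Their sum per kb was 110 and 115 in ethanol and 117 and 115 with 4-OHT. The ratio of D-type to E-type cyclin transcript was 1.03 and 0.937 in ethanol and 1.27 in each 4-OHT library. E-type cyclins over Cdk2 were 6.53 and 6.02 in ethanol and 6.75 and 7.04 with 4-OHT, so this ratio was also higher in both 4-OHT libraries, by 1.10-fold, although none of Ccne1, Ccne2 and Cdk2 passed the test.

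In order of CPM per kb, Cdk4 was the most abundant of the 10 in ethanol at 208, followed by Ccne1 at 98.9 and Ccnd1 at 87.3. Ccnd3 at 18.7 and Cdk2 at 18.0 came next and overlapped between libraries. Then came Ccne2 at 13.7 and Cdkn1b at 9.77. At the low end were Rb1 at 5.09, Cdk6 at 4.76 and Ccnd2 at 4.45, so the D-type cyclin with the highest fold was the scarcest of the 10 by this length. With the longest transcript as the length, Ccnd2 stood 8th, Rb1 9th and Cdk6 10th. With 4-OHT, Ccnd1 at 117 was above Ccne1 at 102, Cdk4 stayed first at 203, and Ccnd2 at 7.31 stood just below Cdkn1b at 7.91. With the longest transcript as the length, Ccnd2 at 10.9 stood above Cdkn1b at 7.91. By either length Cdk6 was then the lowest, at 3.75 per kb of exon.

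Several of these genes share exon sequence with a gene on the other strand, and the use of strand in counting is not given in the sources used here. Without strand, reads from the shared bases cannot be assigned. Ccnd1 shares 1100 bases, 23.4% of its exon length, with Oraov1, which was at 82.7 CPM in ethanol and 99.7 with 4-OHT (log2 fold change 0.27, adjusted p 0.0344). Ccnd1 itself was 138 CPM higher with 4-OHT, and the part of the shared bases in this was not tested. Rb1 shares 488 bases with Rcbtb2 and 408 with Lpar6, and both of these rose, by 0.58 (adjusted p 0.000455) and 0.50 (adjusted p 0.00146) on the log2 scale, while Rb1 was within its spread. Cdk4 shares 641 bases with Tspan31 (98.7 and 86.9 CPM, adjusted p 0.113), and Ccne2 shares 609 with Ints8 (adjusted p 0.107). Ccnd3 shares 361 bases with Bysl (adjusted p 0.357) and Cdk2 shares 34 with Pmel (adjusted p 0.245). Ccnd2 and Cdk6 share 368 to 372 bases with antisense transcripts that were not analysed here.

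Other genes of the pathway were read from 6 lists, of which 96 of 101 genes were in the table. Of these, 4 rose and 3 fell, 7.29% against 9.46% of all genes, with a median log2 fold change of -0.05. With edgeR 6 rose and 5 fell, and the added genes were Ccnl1 and Ung, higher, and Rrm2 and Mybl2, lower (named after their values were seen). Without 4-OHT library A or B limma called 0 of the 96 (15 and 13 at an unadjusted p under 0.05), and edgeR called 10 and 8.

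Among the other CDK inhibitors, 2 of 7 rose and 0 fell, with 3 of the 7 at an unadjusted p under 0.05 and the same split in edgeR. Across all genes limma called 9.46%, and 3441 of 14376 were at an unadjusted p under 0.05. Cdkn1a, the p21 gene, was at 128 and 121 CPM in ethanol and at 173 and 176 with 4-OHT (log2 fold change 0.48, adjusted p 0.000827). Cdkn1c, the p57 gene, was at 132 and 114 against 148 and 160 (0.32, adjusted p 0.0279). Of the 3 Cip/Kip inhibitor genes, these 2 rose, while Cdkn1b was lower in both 4-OHT libraries. Cdkn2a, which makes the INK4A and ARF products, was near 3.27 CPM in ethanol and 4.80 with 4-OHT and did not pass (adjusted p 0.195).

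Of 12 genes for RB relatives and E2F factors, only Tfdp2, a DNA-binding partner of E2F proteins, passed, from 103 and 111 CPM to 140 and 129 (0.33, adjusted p 0.0152). The RB relatives Rbl1 (26.4 against 26.5 CPM, adjusted p 0.965) and Rbl2 (8.48 against 7.58, adjusted p 0.743) and the activator E2f1 (55.8 against 62.6, adjusted p 0.279) did not. Among 25 E2F target genes 0 passed in limma, 4 were at an unadjusted p under 0.05, and edgeR called 3. Their log2 fold changes ran from -0.20 to 0.20 with a median of -0.06. Among 19 genes for activation or turnover of the kinases, 0 passed in limma or edgeR and 1 was at an unadjusted p under 0.05. Across all genes 3441 of 14376 were at an unadjusted p under 0.05 in limma, and edgeR called 15.8%.

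Among 19 other cyclins, Ccno rose, from 20.1 and 17.0 CPM to 31.6 and 29.4 (0.69, adjusted p 0.00584), and Ccng1 fell, from 734 and 722 to 578 and 610 (-0.29, adjusted p 0.00713). Ccna2, the S-phase cyclin that follows cyclin E, was at 372 CPM in ethanol and 374 with 4-OHT (adjusted p 0.956). Among 14 other CDK genes, Cdk14 fell from 36.0 and 33.9 CPM to 19.0 and 20.8 (-0.78, adjusted p 0.00160) and Cdk17 fell from 71.3 and 73.3 to 56.6 and 57.2 (-0.34, adjusted p 0.0150). Limma thus called 10.5% of the other cyclins and 14.3% of the other CDK genes, near the 9.46% called of all genes. Cdk1, the mitotic kinase gene, was at 273 and 258 CPM on average (adjusted p 0.454). Of the 31 other cyclin and CDK genes with a mean of at least 10 CPM, those with a log2 fold change nearest to the D-type cyclin mean of 0.47 were Cdk19 (0.37, adjusted p 0.193), Ccno and Ccnl1 (0.25, adjusted p 0.0851). This likeness rests on 1 difference between 2 groups of 2 libraries.

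**Figure D4:**
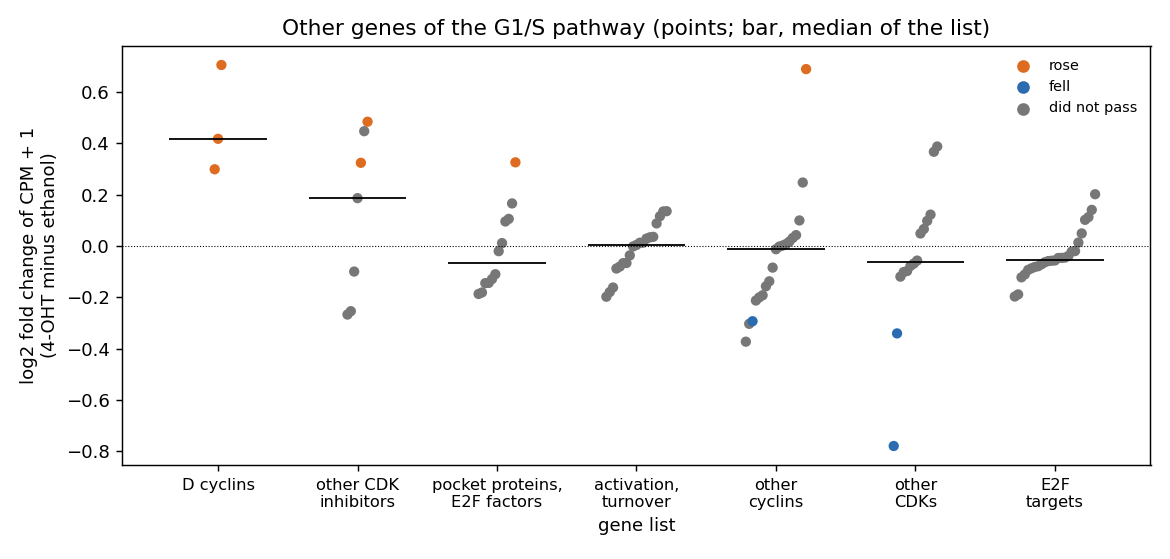
Change with 4-OHT relative to ethanol, in log2 units of CPM + 1, for the D-type cyclins and the measured genes of 6 pathway lists, 1 point per gene, with a bar at the median of each list. Orange marks genes that rose, blue genes that fell and grey those that did not pass. The D-type cyclin median is 0.42, that of the other CDK inhibitors 0.19, and the medians of the other 5 lists lie between -0.07 and 0.0041.

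Bulk RNA cannot tell fewer cells of a type from less RNA per cell, so the markers of other cells are given beside these results. For scale, limma called 9.46% of all genes tested, 5.24% higher and 4.22% lower with 4-OHT. ESC markers were abundant, with Pou5f1 at 1442 and 1439 CPM on average, and of 13 markers 3 rose (Fgf4, Nanog, Tdgf1) and 3 fell (Tfcp2l1, Esrrb, Sox2). Of 19 feeder fibroblast markers measured out of 25, 2 rose (Col1a2, Thy1) and 2 fell (Tagln, Col5a2), and their summed level was 958 to 986 CPM in ethanol and 814 to 845 with 4-OHT. Most of that sum was Tagln, at 637 and 475 CPM. The other 18 markers summed to 337 and 333 CPM in ethanol and 360 and 349 with 4-OHT, higher in both 4-OHT libraries. Col1a2 alone was 24.1 CPM higher on average with 4-OHT, which is more than the rise in the mean of that sum. The higher sum is therefore not a rise of these markers in general. Of the 19 markers 15 did not pass, and the median log2 fold change of the list was 0.03. The 6 further markers (Postn, Lum, Dcn, Fap, Twist2, Prrx1) were not analysed here. Of 16 neuroectoderm markers measured out of 19, 11 rose and 1 fell (Nes), with sums of 602 to 613 CPM in ethanol and 713 to 756 with 4-OHT. The largest rises were in Zic1 (13 reads in both ethanol libraries together, 77 with 4-OHT), Neurog3 (8 and 59 reads), Pax3 (5 and 47) and Pax2 (2 and 29). More abundant markers rose too, Zic2 from 63.5 to 142 CPM on average and Sox1 from 89.4 to 154, while Nes fell from 219 to 147. Primitive endoderm markers (11 of 13 measured, 1 rose, 4 fell) summed to 963 to 964 and 852 to 900 CPM, and trophoblast markers (9 of 11, 1 rose, 2 fell) to 251 to 263 and 241 to 242 CPM. Pou5f1, Esrrb, Sox2, Nes, Zic2 and Sox1 were named after their values were seen. No measured marker was at 0 in all libraries, and the part of other cell types in the rise of the D-type cyclins was not tested.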

How the data were processed

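PolyA RNA of 4 mouse ESC libraries was sequenced, 2 given ethanol and 2 given 4-OHT. The submitters' processing notes name HISAT2, Trimmomatic, FastQC and edgeR, and the mm10 build. The sources used here do not give the read counter, its annotation or its use of strand. Per the file headers, the authors deposited the mean CPM of each group for 14382 genes. Each mean adds up the whole reads of 2 libraries, multiplied by what 1 read of each library is worth. With these steps found from low values, 100% of values came out whole to the printed digits, against 0.133% of 3000 values moved at random in each group. The split into reads was unique for 99.7% (ethanol) and 99.95% (4-OHT) of genes. Several splits existed for 43 and 7 genes, of which 37 and 7 had only 1 with the libraries less than 2-fold apart, and 6 genes were left out. Which library of a group is replicate 1 is unknown, so they are called A and B. Fold changes and p-values in the deposited table were left aside, since earlier work on these data found them out of register with the rows.

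The main test was limma-trend 3.58.1 (R 4.3.3) on log2(CPM + 1), two-sided, with Benjamini-Hochberg adjustment over 14376 genes, a threshold of 0.05 and no filter. Every adjusted p is from limma unless edgeR or DESeq2 is named, and fold changes on the log2(CPM + 1) scale understate those of low genes. The alternatives were edgeR 4.0.16 (quasi-likelihood) and DESeq2 1.42.0 on the recovered reads, other size factors, a pseudocount of 0.1, a minimum mean of 1 CPM and leaving out each library. The fits were also run on simulated counts with the same variability in every gene, which cannot show how they behave with the spread of these libraries. Counting intervals are exact binomial at 95%, cover counting error only and treat reads as independent. Log2(CPM + 1) correlated at 0.995 (Pearson, across genes) between libraries of a group and at 0.987 to 0.988 across groups. Coordinates, 1-based, and exon lengths are from Gencode M21 (GRCm38, the assembly of mm10), and CPM per kb uses the union of a gene's exons.

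The 10 genes, the lists and the tests were chosen with earlier results of these data known. Named were all 10, Arid1a and up to 5 called genes of each pathway list. Also named were Cdkn1a, Cdkn2a, Rbl1, Rbl2, E2f1, Ccna2, Cdk1 and the 3 cyclin or CDK genes nearest to the D-type cyclin mean. Of the ESC, feeder and neuroectoderm markers, the 4 called ones with the largest change in each list were named. Called primitive endoderm and trophoblast markers were counted and not named. Genes outside this rule are marked in the text as named after their values were seen, or share exon bases with 1 of the 10.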

Additional observations from a re-analysis of the deposited data

How the results depend on the processing

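Over the alternatives run, the fold of the D-type cyclin sum was 1.29 to 1.37, and that of its ratio to Cdk4 plus Cdk6 was 1.33 to 1.41. The ends of both ranges came from leaving out a library, which cannot move a group mean beyond its 2 libraries. Size factors cancel in the ratio. These ranges therefore do not measure the spread between cultures. The number of genes called was 1360 in the main analysis, 2042 with edgeR and 699 with DESeq2, and 0 to 1767 when a library was left out. The number of the 10 G1 genes called was 4, and 0 to 5 when a library was left out. The number of other pathway genes called was 7, and 11 with edgeR, 11 with a minimum mean of 1 CPM and 0 to 10 when a library was left out. The zeros came from limma without either 4-OHT library, where the lone library is assumed to vary like the ethanol group, and the lowest adjusted p over all genes was 0.129 and 0.121. The cause was not tested. Over 14 alternatives for each of the 10 genes, 125 of the values stayed on the same side of the threshold, 12 no longer passed and 3, all of Cdkn1b, newly passed. All 12 losses were in the 4 called genes, 2 of 14 each for Ccnd1 and Ccnd2 and 4 of 14 each for Ccnd3 and Cdk6. No called value changed sign, while those of Ccne2, Cdk2, Cdk4 and Rb1, never called, lay on both sides of 0. The edgeR fits that leave out a library were added after seeing the data. No paired analysis was possible because the recovered libraries carry no replicate numbers. Of the 10 genes Ccne2 had the widest 95% interval, -0.26 to 0.28 on the log2 scale, so changes up to that size lie within it. Rb1 had the fewest reads, 394 in ethanol and 425 with 4-OHT.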
